A study of Sus scrofa with 27 samples.

Results

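The cytosolic heat shock chaperones were followed through ex vivo lung perfusion (EVLP) as 10 genes: the HSP70 family member HSPA8, its J-domain partners DNAJB1 and DNAJA1, its nucleotide exchange factors HSPH1 and BAG3, the HSP90 pair HSP90AA1 and HSP90AB1, the small heat shock protein HSPB1, and the chaperonin HSPD1 with its lid HSPE1. They were taken by gene name from a table of 31908 genes. The name column held 9 of the 10, and every count of members called is out of those 9. The row of DNAJA1 has no name in the table and was found by its gene ID, so its values stand beside the others and enter no count of members called. No member was dropped for low counts, since the lowest count of any member in any library was 245 (HSP90AB1).

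RNA-seq was done on lung biopsies of 9 Large-White pigs, whose lungs came from a non-heart-beating donor model, went through cold ischemia and were then perfused for 12h with Steen solution containing methylprednisolone, cefuroxime and heparin. In the Gold Standard group (GS, 5 pigs, numbered 9, 17, 44, 55 and 77) part of the perfusate was exchanged at intervals. In the Pediatric Dialysis group (PD, 4 pigs, numbered 2, 3, 4 and 5) a pediatric hemodialysis membrane was placed on the circuit. Every pig gave a biopsy at 0h (after cold ischemia, before EVLP), at 6h and at 12h, which makes 27 libraries. By the study's methods the PD lungs had served in an earlier study and the GS lungs had not. RNA was extracted by either of 2 routes, from frozen slices or from RNAlater, and the route of each biopsy is not given in the sources used here. These are whole-lung biopsies, so fewer cells of a type and less RNA per cell cannot be told apart.

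These proteins keep other proteins folded. HSP70 chaperones bind exposed hydrophobic stretches of a client in cycles of ATP hydrolysis, which J-domain proteins start and exchange factors end, and HSP90 receives clients such as steroid receptors and kinases at a later stage. HSPD1 and HSPE1 form the chaperonin of the mitochondrial matrix, and although they are listed here with the cytosolic chaperones their proteins act inside mitochondria. Heat, oxidants and ischemia release heat shock factor 1 (HSF1), which binds inverted repeats of GAA and TTC units ahead of many of these genes, and the inducible members then accumulate within a short time while the constitutive members move less. HSPA8 and HSP90AB1 are the forms usually called constitutive, and DNAJB1, HSPH1 and HSP90AA1 are strongly heat inducible.

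In the Sscrofa11.1 assembly and the table's own annotation, HSPA8 (ENSSSCG00000015140) lies at chr9:49982284-49990508 on the minus strand. DNAJB1 (ENSSSCG00000013784) lies at chr2:64750820-64765485 on the plus strand and DNAJA1 (ENSSSCG00000011000) at chr10:33432844-33445532 on the minus strand. HSPH1 (ENSSSCG00000009334) lies at chr11:7733874-7759576, minus strand, and BAG3 (ENSSSCG00000010686) at chr14:129510293-129533996, plus strand. HSP90AB1 (ENSSSCG00000001701) is at chr7:39244458-39254002, plus strand, while HSP90AA1 (ENSSSCG00000002535) is on an unplaced scaffold, positions 917074 to 978230, minus strand. HSPB1 (ENSSSCG00000039962) occupies chr3:10037936-10039915 on the minus strand. HSPD1 (ENSSSCG00000016077, chr15:101360094-101373527, minus strand) and HSPE1 (ENSSSCG00000016078, chr15:101373788-101376162, plus strand) stand head to head.

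The promoters were searched for the letters of the HSF1 element, since the element is what ties many of these genes together. Windows of 250 bases before to 50 after the start of each protein-coding gene were read from the RefSeq annotation of Sscrofa11.1. The motif was GAANNTTC or TTCNNGAA, each its own reverse complement, so that both strands were covered, and a longer form was 3 alternating GAA and TTC units with 2 bases between neighbours, which contains the shorter one. Windows were at hand for 8 of the 9 members and for DNAJA1. HSP90AA1 was left out because its RefSeq record has no complete 5′ end. The short motif was found in 7 of these 9 windows (all but BAG3 and HSPE1) and in 12.5% of 20401 windows overall. The longer form was found in 4 of them (HSPA8, HSP90AB1, HSPD1 and DNAJA1) and in 0.373% overall. A match is a run of letters and not a measured binding site. The RefSeq start lay 3748 bases from the start in the table's annotation for HSPA8, 7159 for HSP90AB1 and 10852 for DNAJB1. It lay 474 bases away for HSPB1 and 231 for HSPE1. By the table's starts the matches of HSPA8, DNAJB1 and HSPB1 lie after the start. Printed here, with matched letters in capitals, are the stretches with the longer form for HSPA8 and HSP90AB1, which are named in the comparisons, and for HSPD1, whose match also lies ahead of HSPE1. BAG3, the member called in the PD group, is shown as one of the 2 without a match. The stretches are chr9:49986761-49986880 (minus strand), chr7:39237049-39237168 (plus), chr15:101373629-101373748 (minus) and chr14:129510120-129510239 (plus), from 5′ to 3′.
HSPA8: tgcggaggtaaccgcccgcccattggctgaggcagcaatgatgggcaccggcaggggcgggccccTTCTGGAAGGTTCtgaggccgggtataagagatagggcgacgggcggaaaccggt
HSP90AB1: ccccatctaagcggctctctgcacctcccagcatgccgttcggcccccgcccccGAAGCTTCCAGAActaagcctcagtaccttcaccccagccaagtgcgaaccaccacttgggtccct
HSPD1: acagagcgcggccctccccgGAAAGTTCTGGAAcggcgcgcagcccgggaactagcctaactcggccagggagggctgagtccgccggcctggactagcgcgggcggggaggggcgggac
BAG3: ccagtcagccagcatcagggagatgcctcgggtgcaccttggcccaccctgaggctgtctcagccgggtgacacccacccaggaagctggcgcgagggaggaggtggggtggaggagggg

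Counted from the start, with -1 as the base before it, the 3-unit runs began at -222 and -55 in HSPA8, at -196 in HSP90AB1, at -230 in HSPD1 and at 26, after the start, in DNAJA1. The starts of HSPD1 and HSPE1 are separated by 520 bases. The run ahead of HSPD1 therefore also lies ahead of HSPE1, from -303 to -291 of its RefSeq start, which is outside the 250 bases searched for HSPE1. The start of HSPE1 in the table's annotation (101373788) is 231 bases nearer to the run (101373716 to 101373728). The run is within 250 bases of that start, so HSPE1 counts as without a match by the RefSeq start only. The short motif alone was at -237 in HSPB1, at 5 in HSPH1, at -1 and 30 in DNAJB1, and at -176, apart from the run, in DNAJA1.

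Depth differed between the groups. Total counts per library were 26335584 to 67522703 in GS and 14650700 to 21820935 in PD, without overlap, so that the group and anything that went with library making cannot be told apart. Ribosomal protein genes took 2.79% to 3.78% of counts in GS and 6.8% to 22.0% in PD, with the highest shares in PD pig 2 at 12h (22.0%) and PD pig 4 at 0h (16.4%). Counts also followed exon length differently. For each library, a gene's log2 CPM less its mean over the 27 libraries was correlated with its exon length, across genes. The Spearman correlation was 0.04 to 0.38 in GS libraries and -0.44 to 0 in PD libraries. These values are relative to the mean of all libraries, so a negative one does not mean that counts fall with length. Of the alveolar type 2 markers, 5 of the 6 listed had a row and each had at least 10 counts in every library, and their summed level at 0h was 26012 to 76996 CPM in PD and 6521 to 9238 CPM in GS. Of the 12 cell type lists examined, 6 did not overlap between the groups at 0h. The share of all genes without overlap is not given here. In the comparison of levels at 0h 21.3% of all genes were called higher in PD and 19.3% lower, so nothing about cell make-up is read from the 6 lists. Neutrophil markers (3 of 5 with a row) were higher in PD, at 600 to 1223 CPM against 121 to 369 CPM, as were ciliated airway cell markers (5 of 5), at 329 to 350 CPM against 179 to 252 CPM. Red cell precursor markers (2 of 4, neither with 10 counts in every library) were at 51.3 to 236 CPM in PD and 0.355 to 10.3 CPM in GS. Macrophage markers (5 of 5) were lower in PD, at 1783 to 2211 CPM against 2468 to 4675 CPM, as were endothelial markers (5 of 5), at 1175 to 1538 CPM against 1653 to 2292 CPM. CPM here means counts per 1000000 of the TMM-scaled library size.

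Per kilobase of RefSeq exon, HSP90AA1 and HSPA8 had the highest medians of all members in every group and time. The exon length of HSP90AA1 (2430 bases) is from the record without a complete 5′ end, so its values per kilobase and its rank may be too high. At 0h in GS the medians were 419 CPM per kb for HSP90AA1 (lowest and highest pig 401 and 885) and 379 for HSPA8 (255 to 814), whose ranges overlap. DNAJB1 (242), HSPB1 (214) and HSP90AB1 (132) followed, and HSPE1 (77.3), DNAJA1 (54.1), HSPD1 (51.5), HSPH1 (27.4) and BAG3 (26.5) were lowest. In PD at 0h the order was HSPA8 (890), HSP90AA1 (845), HSPE1 (440), HSPB1 (179), DNAJB1 (161), DNAJA1 (106), HSPD1 (88), HSP90AB1 (67.1), HSPH1 (35.5) and BAG3 (11.9). In PD HSPE1 came behind HSPA8 and HSP90AA1, and in GS 5 members came before it. Neighbours in either order had overlapping ranges between pigs, apart from HSPE1 in PD (324 to 515), which overlapped neither HSP90AA1 above it nor HSPB1 below it. Together the 9 members took 0.3% to 0.846% of all counts of a GS library and 0.321% to 0.723% of a PD library.

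**Figure D1:**
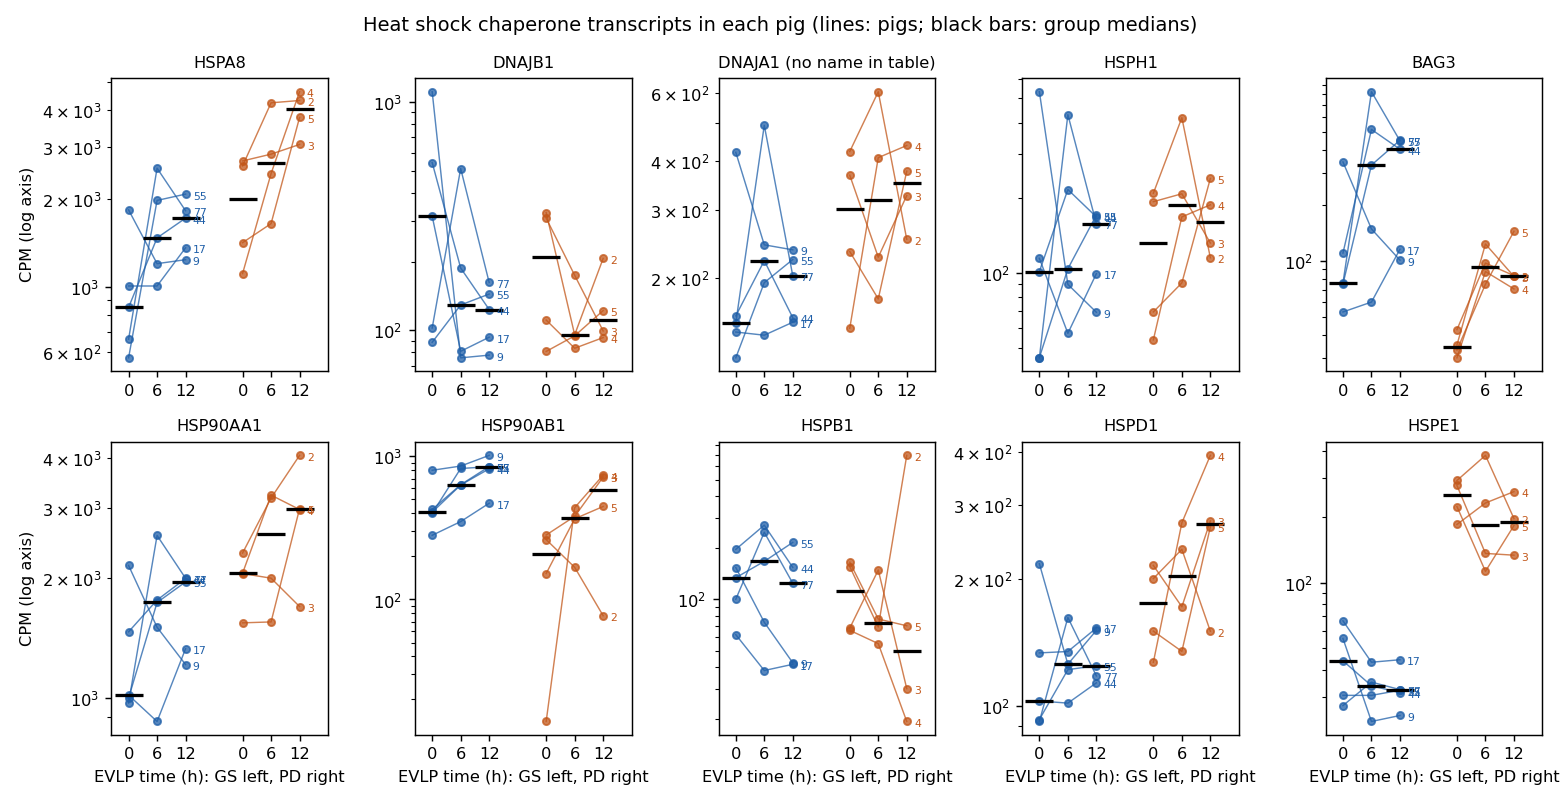
Level of each chaperone in CPM (log axis) at 0h, 6h and 12h, with a line for each pig (number at its end), GS in blue and PD in orange, and black bars at the group medians. BAG3 lies higher at 6h and 12h than at 0h in all 4 PD pigs, HSP90AB1 climbs in all 5 GS pigs, and GS pig 9 starts high at 0h for DNAJB1, HSPH1 and BAG3.

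The comparison of 6h and 12h with 0h in the GS group asks what perfusion with exchanged perfusate did to these transcripts. HSP90AB1, the constitutive HSP90, was the member called higher, by 1.43-fold at 6h and 1.73-fold at 12h. Its level in pigs 9, 17, 44, 55 and 77 was 800, 281, 407, 426 and 400 CPM at 0h, then 856, 350, 632, 634 and 823 CPM at 6h, then 1017, 471, 820, 850 and 847 CPM at 12h. All 5 pigs were higher at 6h than at 0h and higher at 12h than at 6h, although pig 9 at 0h overlapped the later values of the others. The fitted log2 FC was 0.51 (SE 0.13, adjusted p = 0.0115) at 6h and 0.79 (SE 0.13, adjusted p = 0.000704) at 12h. Without the pig as a block the values were 0.49 (adjusted p = 0.336) and 0.75 (adjusted p = 0.0962), and with all 27 libraries in one fit 0.53 (adjusted p = 0.587) and 0.83 (adjusted p = 0.298). The call at 6h was also lost without pig 44 (0.49, adjusted p = 0.0545) or pig 77 (0.39, adjusted p = 0.0653), while that at 12h held whichever pig was left out.

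Of the 9 members, 1 was called higher and 0 lower at 6h in GS, where 13.6% of the 18594 genes tested were called higher and 14.9% lower. At 12h it was again 1 higher and 0 lower, against 17.6% and 20.8% of all genes. The median log2 FC of the 9 members was 0.18 at 6h and 0.06 at 12h, and that of all genes tested was -0.05 and -0.08. From 6h to 12h no member was called in GS, where 0.0% of all genes were called by edgeR. At an unadjusted p under 0.05 there was 1 member (HSP90AB1, log2 FC 0.28, SE 0.13) and 882 genes, and DESeq2 called 0 members.

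The GS pigs lay far apart at 0h in DNAJB1 and HSPH1. DNAJB1, the J-domain protein that recruits HSP70 in the heat shock response, was at 1107, 316, 542, 88.6 and 102 CPM at 0h in pigs 9, 17, 44, 55 and 77. At 12h the same pigs had 77.9, 93.3, 123, 144 and 162 CPM. Pigs 9, 17 and 44 went down, pigs 55 and 77 went up, and the range between pigs, 12.5-fold at 0h, was 2.08-fold at 12h. At 6h the pigs had 75.8, 80.9, 187, 129 and 510 CPM, a 6.74-fold range with pig 77 the highest. The log2 FC at 6h was -1.23 (SE 0.72, adjusted p = 0.22), and it was called lower without pig 77 (-1.98, adjusted p = 0.0413) and was -0.33 (adjusted p = 0.73) without pig 9. At 12h the fitted log2 FC was -1.73 (SE 0.70, adjusted p = 0.0663) and did not pass. It passed in DESeq2 (-1.68, adjusted p = 0.0475), without pig 55 (-2.27, adjusted p = 0.0379) and without pig 77 (-2.05, adjusted p = 0.024), and was -0.91 (adjusted p = 0.247) without pig 9. It also passed once each library's dependence of counts on exon length and GC content was removed (-1.78, adjusted p = 0.0477), an adjustment called the length and GC trend from here on.

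HSPH1, the HSP110 exchange factor, was at 532, 114, 101, 45.7 and 45.6 CPM at 0h and at 69.5, 99.3, 168, 170 and 158 CPM at 12h in the same order of pigs. Pig 9 was the highest at 0h and the lowest at 12h. At 6h pig 77 had 431 CPM and the others 57.2 to 216 CPM. The groups overlapped at every time, and the fitted log2 FC was 0.18 (SE 0.73, adjusted p = 0.879) at 6h and -0.03 (SE 0.71, adjusted p = 0.98) at 12h.

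BAG3, which couples HSP70 to autophagy and to small heat shock proteins, was at 343, 53, 110, 75.1 and 76 CPM at 0h, at 149, 59.9, 514, 330 and 823 CPM at 6h, and at 101, 116, 402, 450 and 447 CPM at 12h. It was higher than at 0h in 4 of 5 pigs at both times, with pig 9 the exception. Its log2 FC was 1.19 (SE 0.62, adjusted p = 0.164) at 6h and 1.09 (SE 0.61, adjusted p = 0.171) at 12h. With pig 9 left out, BAG3 reached 2.04 (SE 0.41, adjusted p = 0.0055) at 6h and 1.96 (SE 0.39, adjusted p = 0.00312) at 12h. It was lowest without pig 77 at 6h (0.63, adjusted p = 0.502) and without pig 55 at 12h (0.69, adjusted p = 0.471).

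HSPA8, the constitutive HSP70, went from 573 to 1830 CPM at 0h (median 851) to 1238 to 2071 CPM at 12h (median 1715), and was higher at 12h than at 0h in 4 of 5 pigs, again with pig 9 the exception. Its log2 FC was 0.70 (SE 0.32, adjusted p = 0.118) at 6h and 0.71 (SE 0.32, adjusted p = 0.0916) at 12h, and DESeq2 gave 0.77 (adjusted p = 0.0425) at 12h. HSP90AA1, the inducible HSP90, went from 973 to 2150 CPM (median 1019) at 0h to 1215 to 1997 CPM (median 1955) at 12h, with a log2 FC of 0.33 (SE 0.24, adjusted p = 0.294). Without pig 9, 4 members were called higher at 12h (HSP90AB1 0.96, adjusted p = 0.000425; HSPA8 1.14, adjusted p = 0.00782; HSP90AA1 0.69, adjusted p = 0.0239; and BAG3), and 3 at 6h (BAG3, HSPA8 and HSP90AB1). Without pig 9, 20.3% of all genes were called higher at 12h and 13.8% at 6h.

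Pig 9 at 0h had the highest value of the 5 GS pigs for 7 of the 9 members, and pig 77 at 6h for 6 of the 9. Pig 9 at 12h had the lowest value for 6 of the 9. The shares of all genes that rank these libraries so are not given here, and nothing particular to the chaperones is read from the counts. The depth of pig 9 at 0h (28708832) was the next to lowest of the 5. Its ribosomal protein share (3.4%) and mitochondrial share (6.46%) lay within the range of the other GS libraries at 0h. It stood apart from them in genes with a count (21480, the others 22663 to 24084). It also did so in the Spearman correlation with GC content, taken like that with exon length (-0.20, the others 0.01 to 0.33). The later libraries of pig 9 stood apart in this correlation too (-0.27 at 6h and 12h, the others -0.06 to 0.56). Pig 17 lay nearest to pig 9, at 0.01, -0.06 and 0.12 at 0h, 6h and 12h. Pigs 44, 55 and 77 were at 0.22 to 0.56. Total counts split GS the same way, at 26335584 to 41802541 in pigs 9 and 17 and 51708598 to 67522703 in the others. At 6h BAG3, HSPA8, HSPH1, HSP90AA1, DNAJB1 and HSPB1 were lower in pigs 9 and 17 than in the others. HSP90AB1, HSPD1 and HSPE1 were not. At 0h BAG3 was highest in pig 9 and lowest in pig 17. The part of these differences in the values of pigs 9 and 17 was not tested.

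With all pigs, the remaining members did not pass in GS. HSPD1 had medians of 103, 126 and 125 CPM at 0h, 6h and 12h, with a log2 FC of 0.06 (SE 0.17, adjusted p = 0.793) at 12h. HSPE1 had medians of 43.9, 33.8 and 32.2 CPM, and its log2 FC was -0.45 (SE 0.19, adjusted p = 0.0786) at 12h, which was called lower without pig 77 (-0.59, adjusted p = 0.0367) and was -0.20 (adjusted p = 0.368) without pig 9. HSPB1, a small heat shock protein that holds unfolding clients and binds actin, was at 62.1 to 196 CPM at 0h and 41.7 to 215 CPM at 12h, with a log2 FC of -0.43 (SE 0.32, adjusted p = 0.304). DNAJA1, the second J-domain protein, was at 125 to 160 CPM in 4 pigs at 0h and at 422 CPM in pig 9, and its log2 FC was 0.38 (SE 0.27, adjusted p = 0.318) at 6h and 0.02 (SE 0.27, adjusted p = 0.952) at 12h.

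In the PD group the member called higher, at 12h, was BAG3. In pigs 2, 3, 4 and 5 it was at 42.5, 35.1, 29.9 and 33 CPM at 0h, at 97.4, 124, 87.7 and 74.8 CPM at 6h, and at 83.3, 82.5, 70.6 and 145 CPM at 12h. Neither later time overlapped 0h, and all 4 pigs were higher at 6h and at 12h. At 12h the rise was 2.67-fold (log2 FC 1.42, SE 0.34, adjusted p = 0.0351). At 6h the value was of the same size (log2 FC 1.45, SE 0.34) with an adjusted p of 0.133, where few genes passed at all. It passed at 6h in DESeq2 (1.47, adjusted p = 0.00176), without the pig as a block (1.45, adjusted p = 0.048) and with the length and GC trend removed (1.58, adjusted p = 0.0303). At 12h the call was lost without pig 3 (1.47, adjusted p = 0.226), pig 4 (1.51, adjusted p = 0.0833) or pig 5 (1.13, adjusted p = 0.329), and with all 27 libraries in one fit (1.42, adjusted p = 0.0663). No gene of the whole table was called at 12h without pig 3 (0 of 15603) or pig 5 (0 of 15512), and without pig 4 1.5% were called higher and 1.05% lower.

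At 12h in PD, 1 of 9 members was called higher and 0 lower, against 3.22% and 2.76% of the 15545 genes tested. At 6h edgeR called 0 of 9 in either direction, against 0.135% higher and 0.00643% lower of all genes. The member at an unadjusted p under 0.05 at 6h was BAG3, beside 9.41% of all genes. BAG3 was also the 1 member DESeq2 called, where DESeq2 called 2.08% of all genes higher and 0.727% lower. The median log2 FC of the 9 members was 0.27 at 6h and 0.60 at 12h, beside -0.02 and -0.05 for all genes. From 6h to 12h edgeR called 0 members, 0 had an unadjusted p under 0.05, and DESeq2 called 0. Of all genes edgeR called 0.0%, and DESeq2 called 0.714% higher and 0.798% lower.

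HSPA8 in PD was at 2584, 2687, 1110 and 1415 CPM at 0h, at 4240, 2834, 2433 and 1643 CPM at 6h and at 4318, 3058, 4625 and 3779 CPM at 12h in pigs 2, 3, 4 and 5. All 4 pigs were higher at 12h than at 0h, and the values at those times did not overlap. Pig 4 at 0h, the lowest here, had the lowest value of the 4 PD pigs for 7 of the 9 members, and the share of all genes lowest in it is not given here. The log2 FC of HSPA8 at 12h was 1.11 (SE 0.38, adjusted p = 0.104), and 0.83 (adjusted p = 0.35) without pig 4 and 1.20 (adjusted p = 0.037) without pig 2. It passed with all 27 libraries in one fit (1.11, adjusted p = 0.0379), in DESeq2 (1.15, adjusted p = 0.0147) and with the length and GC trend removed (1.17, adjusted p = 0.0129).

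HSP90AB1 in PD was at 262, 282, 14 and 152 CPM at 0h, at 168, 381, 438 and 367 CPM at 6h and at 77, 718, 740 and 447 CPM at 12h. Pig 4 at 0h and pig 2 at 12h stand far below the rest, and these are the libraries with the highest ribosomal protein shares. Pig 2 went down over the 12h while the others went up. With all libraries the log2 FC at 12h was 1.29 (SE 0.89, adjusted p = 0.405). With those 2 libraries left out it was 1.18 (SE 0.38, adjusted p = 0.0329), and 3 members were called at 12h: BAG3 higher (1.58), HSP90AB1 higher and HSPB1 lower. Of all genes 11.8% were then called higher and 11% lower. With single pigs left out, the HSP90AB1 value ran from 0.46 (adjusted p = 0.746) without pig 4 to 2.35 (adjusted p = 0.0469) without pig 2.

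HSPB1 in PD was at 155, 67.8, 65.8 and 165 CPM at 0h and at 693, 30, 19.3 and 70 CPM at 12h. It was lower at 12h in pigs 3, 4 and 5 and higher in pig 2, the library with the highest ribosomal protein share. The log2 FC was -0.28 (SE 0.85, adjusted p = 0.872) with all libraries and -1.50 (SE 0.44, adjusted p = 0.024) without pig 4 at 0h and pig 2 at 12h.

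As counted, the remaining members did not pass in PD. DNAJB1 was at 328, 310, 111 and 80.8 CPM at 0h and 206, 99.3, 92.9 and 122 CPM at 12h, with a log2 FC of -0.50 (SE 0.41, adjusted p = 0.485). HSPH1 was at 208, 193, 53.9 and 69.7 CPM at 0h, with pigs 4 and 5 below pigs 2 and 3, and at 115, 132, 187 and 239 CPM at 12h, with that order turned. HSPD1 had a log2 FC of 0.60 (SE 0.37, adjusted p = 0.346) at 12h, and passed with the length and GC trend removed (0.66, SE 0.21, adjusted p = 0.0416). HSPE1 had one of -0.37 (SE 0.37, adjusted p = 0.58). HSP90AA1 was at 1545 to 2309 CPM at 0h and 1697 to 4052 CPM at 12h (log2 FC 0.52, SE 0.35, adjusted p = 0.392), and DNAJA1 was at 148 to 423 CPM and 252 to 439 CPM (0.34, SE 0.44, adjusted p = 0.689).

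**Figure D2:**
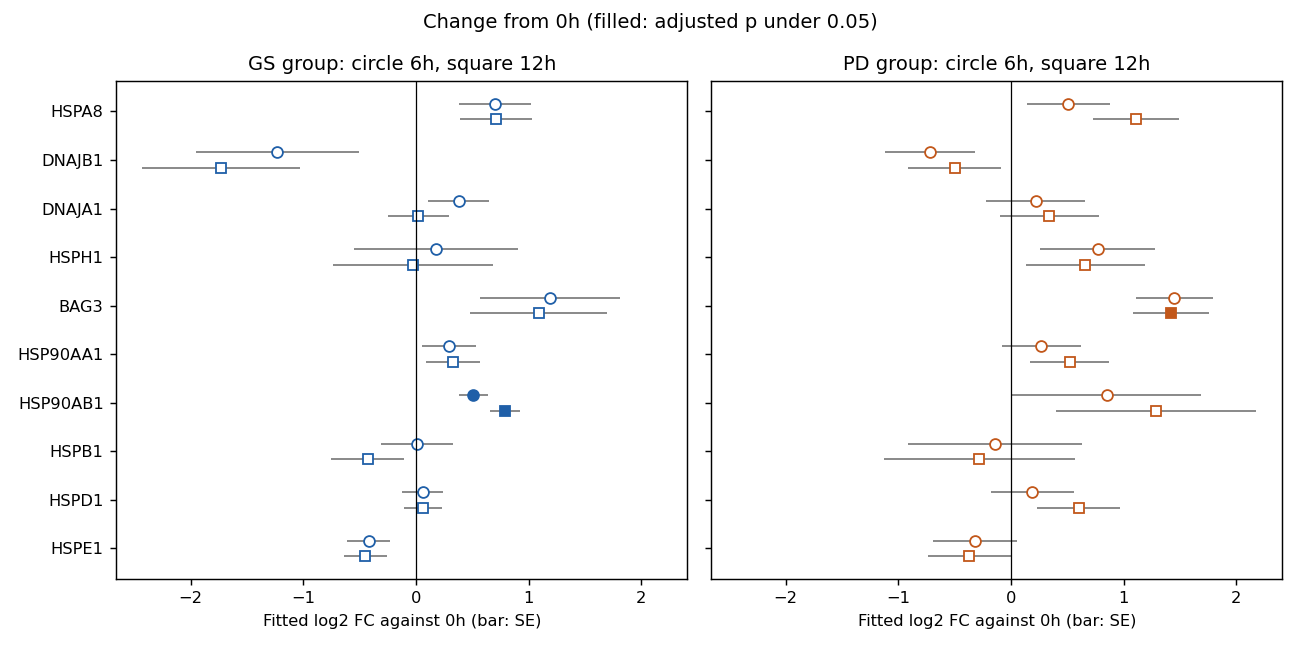
Fitted log2 FC against 0h with its SE for each chaperone, GS left and PD right, circles for 6h and squares for 12h, filled where the adjusted p was under 0.05. The filled points are HSP90AB1 at 6h and 12h in GS and BAG3 at 12h in PD.

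Whether dialysis altered the change from 0h was tested as an interaction of group and time over all 27 libraries. No member was called at 6h or 12h, 0 of 9 each, and 0.0% of the 17884 genes tested were called at either time by edgeR. No member had an unadjusted p under 0.05 at either time, against 1046 genes at 6h and 1069 at 12h, and DESeq2 called no member. The difference in log2 FC at 12h, PD less GS, ran from 0.05 for HSPE1 (SE 0.40) to 1.20 for DNAJB1 (SE 0.88), with a median of 0.37 beside -0.01 for all genes. For BAG3 the difference at 12h was 0.30 (SE 0.75, adjusted p = 0.977) and for HSP90AB1 it was 0.45 (SE 0.84, adjusted p = 0.966). A difference between the groups in the change of HSP90AB1 or of BAG3 was thus not shown.

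The levels in PD and GS were then compared at each time, over different pigs. BAG3 was lower in PD and HSPE1 higher in PD at 0h, 6h and 12h, and both differences were there before perfusion began. At 0h BAG3 was at 29.9 to 42.5 CPM in PD and 53 to 343 CPM in GS, without overlap (log2 difference -1.87, SE 0.50, adjusted p = 0.0102). At 6h and 12h the difference was -1.97 (SE 0.58, adjusted p = 0.0264) and -1.65 (SE 0.50, adjusted p = 0.0374). The 0h call held whichever pig was left out. The later calls did not, with -2.23 to -1.48 at 6h (lost without GS pig 44 or 77 or PD pig 2, 4 or 5, adjusted p up to 0.092) and -1.92 to -1.48 at 12h (lost without GS pig 44, 55 or 77 or PD pig 3 or 4, adjusted p up to 0.0917). With the length and GC trend removed BAG3 was at -1.61 (adjusted p = 0.0397), -1.26 (adjusted p = 0.0978) and -1.10 (adjusted p = 0.0559). At 6h GS pig 17 (59.9 CPM) lay below all 4 PD pigs (74.8 to 124 CPM), and the other GS pigs lay above them. At 12h the highest PD pig (145 CPM) lay above the lowest GS pigs (101 and 116 CPM).

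HSPE1 was at 184 to 292 CPM in PD and 27.4 to 66.9 CPM in GS at 0h, at 113 to 381 and 23.2 to 43.3 CPM at 6h, and at 133 to 260 and 24.7 to 44.4 CPM at 12h. The groups did not overlap at any time, and the log2 difference was 2.48 (SE 0.29, adjusted p = 5.83e-05), 2.69 (SE 0.36, adjusted p = 0.000917) and 2.56 (SE 0.30, adjusted p = 0.00108). HSPE1 has the shortest exon sequence of the 10, 568 bases in RefSeq, with 40% GC. With the length and GC trend removed, the difference was 0.78 (SE 0.22, adjusted p = 0.0143) at 0h, 0.74 (SE 0.21, adjusted p = 0.0336) at 6h and 0.87 (SE 0.23, adjusted p = 0.0202) at 12h. HSPD1, the partner that shares its upstream stretch and has 1998 bases of exon, differed by 0.48 (SE 0.29, adjusted p = 0.204), 0.64 (SE 0.27, adjusted p = 0.0956) and 1.04 (SE 0.30, adjusted p = 0.0314) as counted, and by -0.24, -0.28 and 0.24 with the trend removed, where no time passed. The call of HSPD1 at 12h was lost without GS pig 44, 55 or 77 or PD pig 3, 4 or 5 (0.81 to 1.05, adjusted p up to 0.0998), and with no filter on low counts (0.97, adjusted p = 0.0722).

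HSPA8 was higher in PD at 0h (log2 difference 1.02, SE 0.38, adjusted p = 0.0495). At 12h the difference was 1.28 (SE 0.30, adjusted p = 0.0127), where the 4 PD pigs had 3058 to 4625 CPM and the 5 GS pigs 1238 to 2071 CPM. At 6h it was 0.76 (SE 0.34, adjusted p = 0.116). The call at 12h held whichever pig was left out, while that at 0h held only without GS pig 9 (1.37, adjusted p = 0.00899) or PD pig 4 (1.21, adjusted p = 0.0172) and was lost without any other (0.82 to 1.15, adjusted p up to 0.136) and with no filter on low counts (0.97, adjusted p = 0.0567). With the trend removed the differences were 0.57 (adjusted p = 0.184) at 0h, 0.14 (adjusted p = 0.789) at 6h and 0.87 (adjusted p = 0.0538) at 12h. HSP90AB1 was lower in PD in the fit at each time without passing (-1.35, -0.98 and -0.70, with an adjusted p of 0.0991, 0.0522 and 0.362), and DESeq2 called it at 0h (adjusted p = 0.0388) and 6h (adjusted p = 0.0279). With all libraries as counted, HSPB1 had no constant direction, at -0.15 (SE 0.36), -0.87 (SE 0.50) and 0.88 (SE 0.93), the last turning to -1.53 (SE 0.60) without pig 2 at 12h. It was lower in PD at each time without pig 2 (-0.34, -0.75 and -1.53) and with the trend removed (-1.02, -0.90 and -0.77). Neither setting passed at any time.

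By count, 2 of 9 members were called higher in PD and 1 lower at 0h, beside 21.3% and 19.3% of the 16477 genes tested. At 6h 1 was higher and 1 lower, beside 12.8% and 11.4% of 16201 genes. At 12h 3 were higher (HSPE1, HSPA8 and HSPD1) and 1 lower (BAG3), beside 10.6% and 9.49% of 16431 genes. The medians of the 9 members were -0.15, 0.30 and 0.81 at the 3 times, and those of all genes 0.00, -0.07 and -0.01. The alveolar type 2 marker sum lay apart between the groups at 12h as well (17254 to 88326 CPM in PD and 6117 to 14558 CPM in GS), as did that of the red cell precursor markers (7.77 to 358 CPM and 0.41 to 4.3 CPM), and both did so at 6h. The other lists overlapped at 6h and 12h. The part of these 6 lists in the level differences was not tested.

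**Figure D3:**
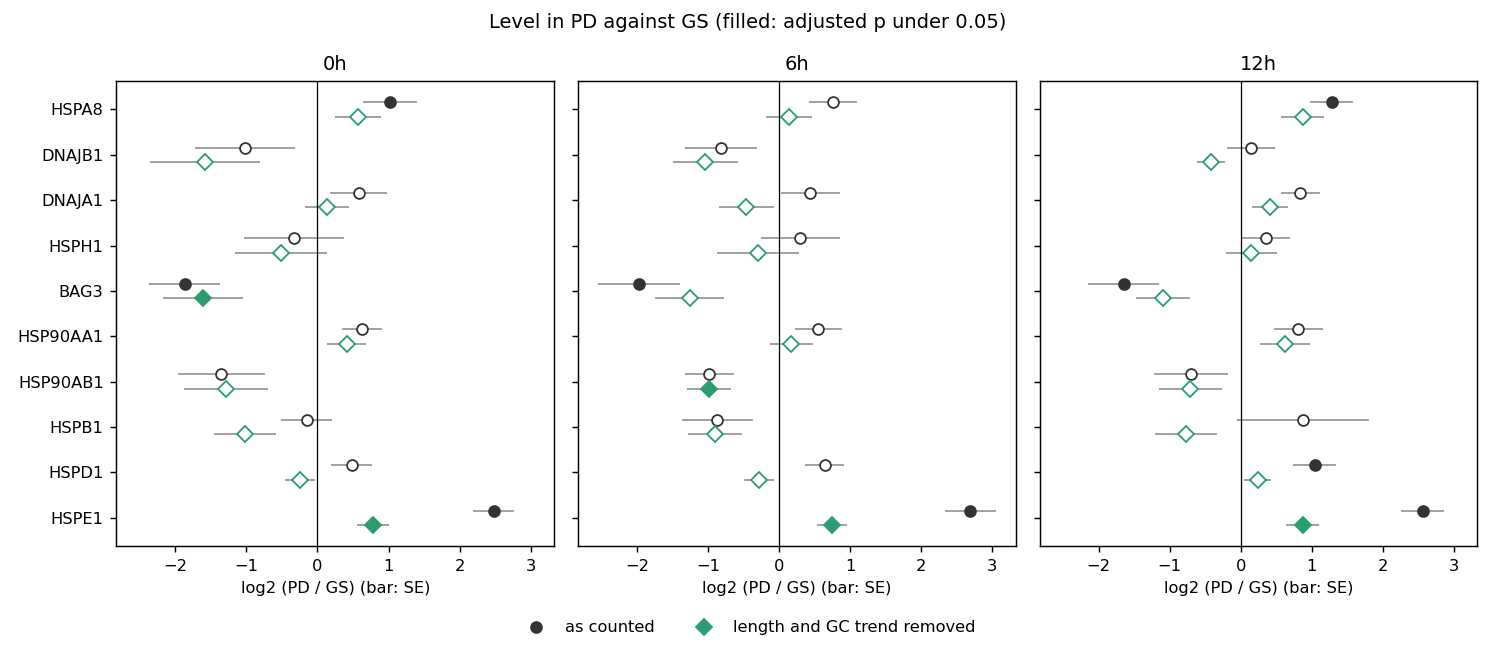
Log2 difference of level between PD and GS at 0h, 6h and 12h with its SE, as counted (circles) and with the length and GC trend removed (diamonds), filled where the adjusted p was under 0.05. HSPE1 moves from 2.48 to 0.78 at 0h when the trend is removed and stays filled, while BAG3 stays below 0 at all times.

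The members were also compared with each other, as log2 CPM less the mean of the pig. These correlations are descriptions, since the libraries of a group share depth and base composition. Over all 27 libraries HSPA8, HSPH1, HSP90AA1 and BAG3, a group picked after the values were seen, had Pearson r of 0.77 to 0.88 in their 6 pairs. The range was 0.81 to 0.96 in the 15 GS libraries and 0.56 to 0.80 in the 12 PD libraries. HSPB1 had r of 0.10 to 0.88 with the other 8 members in GS and -0.69 to 0.36 in PD. DNAJB1 and HSPE1 had r of 0.96 in GS and 0.12 in PD. Over all 36 pairs of the 9 members the median r was 0.71 in GS and 0.25 in PD.

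**Figure D4:**
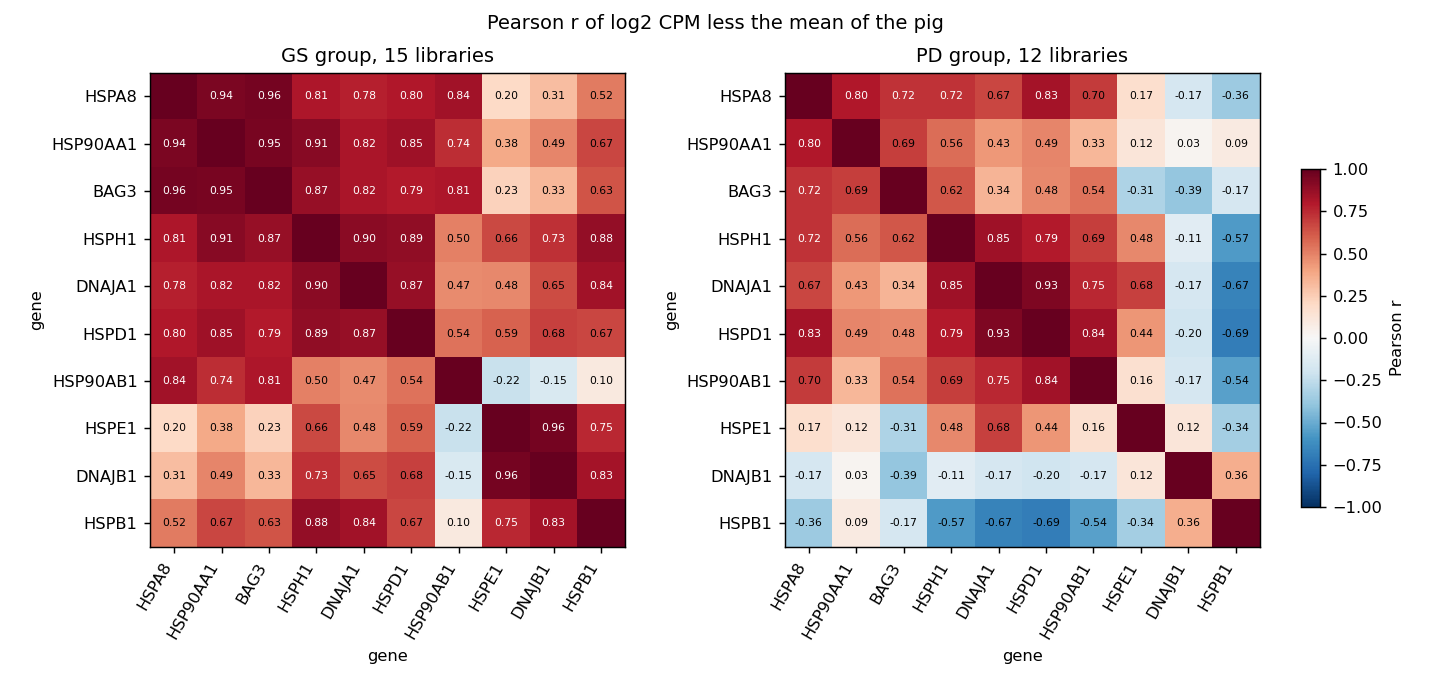
Pearson r between chaperones of log2 CPM less the mean of the pig, over the 15 GS libraries (left) and the 12 PD libraries (right), with red for positive and blue for negative r. HSPA8, HSP90AA1, BAG3 and HSPH1 form a red block in both groups, and the HSPB1 row is red in GS and mostly blue in PD.

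Among 11519 other named genes with a mean of at least 1 log2 CPM, those most like each of 5 members over the 27 libraries were as follows. HSPH1 was most like DYRK3 (r = 0.889), a kinase that dissolves stress granules, then DNAJA1 (0.853) and KLF4 (0.807). HSPA8 was most like H2AFZ (0.894), ODC1 (0.887) and DBF4 (0.885). HSP90AA1 was most like DUSP4 (0.884), HSPA8 (0.882) and IRF8 (0.866). HSPD1 was most like DNAJA1 (0.887), SERPINE2 (0.881) and CDC42SE1 (0.878). HSPB1 was most like MOSPD3 (0.940) and LY6E (0.931), neither of them a chaperone.

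The classical inducible HSP70 has no name in the table and was chosen for mention after its values were seen. The RefSeq gene HSP70.2 (chr7:23925929-23927854) lies inside the unnamed gene ENSSSCG00000029160 (chr7:23914603-23928196, plus strand), which overlaps HSPA1L on the other strand. How the counting treated strand and near-identical HSP70 copies is not stated, so the value is uncertain. At 0h it was at 8243, 1294, 3660, 429 and 401 CPM in GS pigs 9, 17, 44, 55 and 77, and at 173, 200, 714, 720 and 755 CPM at 12h. Like DNAJB1 it was down in pigs 9, 17 and 44 and up in pigs 55 and 77, and its r with DNAJB1 over the 27 libraries was 0.89. In PD it was at 1447, 1042, 118 and 265 CPM at 0h and 165, 49.2, 51.7 and 120 CPM at 12h. Its log2 FC at 12h was -2.42 (SE 1.11, adjusted p = 0.105) in GS and -2.49 (SE 0.68, adjusted p = 0.0541) in PD, and DESeq2 called both (-2.36, adjusted p = 0.0348, and -2.44, adjusted p = 0.00145). In edgeR the GS value was -1.26 (adjusted p = 0.332) without pig 9 and -2.74 (adjusted p = 0.0385) without pig 77.

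The wider chaperone network was counted over 9 lists with 110 genes, none of them a member, of which 100 had a row. In GS at 12h 35 of the 97 tested were called higher and 6 lower, and in PD at 12h 7 of the 95 tested higher and 0 lower. Of all genes 17.6% were called higher and 20.8% lower in GS, and 3.22% and 2.76% in PD, and the counts of each list below stand against these shares. Every call in PD at 12h, in these lists as in the whole table, was lost when pig 3 or pig 5 was left out. DESeq2 called 52 and 25 of the listed genes in either direction, with 22.0% of all genes higher and 21.2% lower in GS and 9.44% and 8.36% in PD. In PD at 6h edgeR called 0 of 95, with 6 at an unadjusted p under 0.05, beside 9.41% of all genes. DESeq2 called 3 there, beside 2.08% of all genes higher and 0.727% lower. The interaction at 12h called 0 of 97, with 7 at an unadjusted p under 0.05, beside 5.98% of all genes, and 0 called by DESeq2. The medians of the lists given here are log2 FC at 12h, beside -0.08 for all genes in GS and -0.05 in PD.

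Of the endoplasmic reticulum chaperones 8 of 11 were higher in GS at 12h, beside 17.6% of all genes, and 2 of 11 in PD, beside 3.22%. HSPA5 (BiP), the HSP70 of the endoplasmic reticulum, rose in GS (log2 FC 1.32, SE 0.31, adjusted p = 0.0055) and in PD (1.61, SE 0.33, adjusted p = 0.0252). Its J-domain partner DNAJB9 rose in GS (0.95, SE 0.14, adjusted p = 0.000392) and in PD (2.06, SE 0.36, adjusted p = 0.0176). CALR, a calcium-binding chaperone of glycoproteins, was at 0.16 (SE 0.10) and -0.15 (SE 0.37). The median of the list was 0.37 in GS and 0.47 in PD.

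Among J-domain co-chaperones 8 of 14 were higher and 1 lower in GS at 12h (median 0.38). In PD edgeR called 0 (median 0.68), with 5 at an unadjusted p under 0.05, beside 24.5% of all genes, and 3 called by DESeq2. DNAJA2, a close relative of DNAJA1, rose by 1.10 (SE 0.13, adjusted p = 0.000101) in GS and was at 1.24 (SE 0.33, adjusted p = 0.0514) in PD, and DNAJB5 rose by 0.93 (SE 0.18, adjusted p = 0.00204) in GS. DNAJB4 was at 0.07 (SE 0.37) in GS.

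Among HSP70 family members and exchange factors 7 of 15 were higher and 1 lower in GS (median 0.25), and 1 was higher in PD (median 0.52). HSPA13 rose by 2.20 (SE 0.20, adjusted p = 4.1e-05) in GS and was at 3.19 (SE 1.13, adjusted p = 0.112) in PD. HSPA1L fell by 2.59 in GS (SE 0.41, adjusted p = 0.000572), and shares reads with its HSP70 neighbour if strand was not counted. ST13, which binds HSP70 and HSP90, was at 0.12 (SE 0.13) in GS.

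Of the HSP90 co-chaperones 2 of 16 were higher and 2 lower in GS (median 0.12), shares below the 17.6% and 20.8% of all genes. In PD edgeR called 0 (median 0.44), with 4 at an unadjusted p under 0.05, beside 24.5% of all genes, and 1 called by DESeq2. FKBP5, an HSP90 partner on steroid receptors and a known glucocorticoid target, rose by 1.46 (SE 0.48, adjusted p = 0.0295) in GS and was at 1.63 (SE 0.43, adjusted p = 0.0501) in PD. CDC37L1 rose by 0.74 (SE 0.12, adjusted p = 0.000619) in GS, and NUDC was at 0.35 (SE 0.13, adjusted p = 0.0521).

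The cytosolic chaperonin TRiC and prefoldin, which fold actin and tubulin, had 6 of 11 genes higher in GS at 12h (median 0.33) and 1 of 10 in PD (median 0.65). CCT5 rose in GS (0.72, SE 0.12, adjusted p = 0.000855) and in PD (1.27, SE 0.32, adjusted p = 0.0411). TCP1 rose in GS (0.91, SE 0.16, adjusted p = 0.000989), and CCT7 was at 0.20 (SE 0.10). Of the mitochondrial chaperones and proteases 1 of 11 was higher and 1 lower in GS (median -0.01) and 1 was higher in PD (median 0.02). HSPA9 (mortalin), the mitochondrial HSP70 that works with HSPD1 and HSPE1, rose in GS (1.06, SE 0.10, adjusted p = 5.93e-05) and in PD (1.49, SE 0.33, adjusted p = 0.0299). Its J-domain partner DNAJA3 fell by 0.62 (SE 0.22, adjusted p = 0.0392) in GS, and LONP1 was at 0.19 (SE 0.10).

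The small heat shock proteins (median -0.11 in GS) had 1 of 6 lower in GS at 12h, HSPB11 (-1.37, SE 0.34, adjusted p = 0.00689), which is a part of the intraflagellar transport machinery. CRYAB was at -0.21 (SE 0.40). In PD edgeR called 0 of the 6, and DESeq2 called 2. Of the 4 heat shock factors and regulators 1 was higher in GS, HSF2 (0.76, SE 0.15, adjusted p = 0.00257), and HSBP1, a binder of HSF1, was at -0.11 (SE 0.13). Of the other known HSF1 targets 2 of 9 were higher in GS (median 0.19), a share near the 17.6% of all genes, and 2 of 8 in PD (median 1.01), beside 3.22% of all genes. IER5 rose in GS (1.38, SE 0.46, adjusted p = 0.03) and in PD (1.53, SE 0.36, adjusted p = 0.0346), and ZFAND2A rose in PD (1.96, SE 0.38, adjusted p = 0.0212) and was at 0.21 (SE 0.61) in GS. The polyubiquitin gene UBB was at 0.19 (SE 0.24) in GS and 1.11 (SE 0.43, adjusted p = 0.141) in PD.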

How the data were processed

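Values were the whole-number counts per gene that the authors deposited for 31908 Ensembl genes (Sscrofa11.1) in 27 libraries. Per the study's methods and processing notes, paired reads of stranded mRNA libraries were demultiplexed with bcl2fastq 2.2.18.12, trimmed with Cutadapt 1.15 and aligned with TopHat2 2.0.14. featureCounts and Subread 1.6.0 are named in the notes; the strand counted and the treatment of reads with several places are not given in the sources used here. Members and gene lists were chosen with earlier results of these data known.

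Counts were fitted with edgeR 4.0.16 (limma 3.58.1, R 4.3.3) with filterByExpr as the low-count filter and TMM scaling. Quasi-likelihood tests were robust and two-sided, with Benjamini-Hochberg adjustment over all genes tested and a call at an adjusted p under 0.05. Each group was fitted with its 3 times and the pig as replicate block, because the biopsies of a pig come from the same animal. The mean correlation of residuals within a pig was 0.526 in GS and 0.109 in PD, and between pigs -0.119 and -0.0322. The interaction used all 27 libraries, and levels used the 9 libraries of each time. Fits were tested on simulated data. CPM values were counts per 1000000 of the TMM-scaled totals. The log2 CPM values for correlations had 0.5 added. Exon length and GC came from RefSeq for 83.9% of genes tested.

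Depth was 14650700 to 67522703 counts per library, so counting error is small for every member. Every pig is a separate animal. In the fits with the pig as block, p-values include the variation between pigs in the change and not in the level. Those of the level comparisons include the variation between pigs in level. Other settings were no replicate block, all libraries in one fit, DESeq2 1.42.0, its size factors, no filter on low counts, the study's further threshold of a 2-fold change, an exact Wilcoxon test of the interaction (which 5 against 4 pigs leave little room to pass after adjustment, so nothing is read from it), and each pig left out. Removing the length and GC trend, and leaving out PD pig 4 at 0h and PD pig 2 at 12h, were added after seeing the data. Genes named are all members and, from each list, at most 2 called at 12h with the largest change and the most abundant gene not called. Perfusate and physiology data were not used here. The likeness list of HSPB1 holds a further gene that is not reported here.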

Additional observations from a re-analysis of the deposited data

Results flagged for a closer look

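Samples far from the rest of their group were looked for in 60 groups of 4 or 5 pigs, 1 for each chaperone, group and time, on the log2 scale, by the gap of the highest or lowest pig to its neighbour as a share of the group's range (Dixon's test). There were 2 past the critical value. HSP90AB1 in GS at 12h was at 471 CPM in pig 17, the lowest, and at 820 to 1017 CPM in the other 4 pigs. DNAJA1 in GS at 0h was at 422 CPM in pig 9, the highest, and at 125 to 160 CPM in the other 4. Other wide gaps did not pass in PD. Among them were HSP90AB1 in pig 4 at 0h (14 CPM, the others 152 to 282), in pig 2 at 6h (168 CPM, the others 367 to 438) and in pig 2 at 12h (77 CPM, the others 447 to 740). Further ones were DNAJB1 in pig 3 at 6h (174 CPM, the others 83.45 to 95.58) and HSPB1 in pig 2 at 12h (693 CPM, the others 19.3 to 70). Chance sets apart about 1 group in 20 by this measure.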

How the results depend on the processing

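The counts of members called depended on the settings. Main counts were 1 in GS at 6h and 12h, 0 and 1 in PD at 6h and 12h, and 3, 2 and 4 for the PD against GS level at 0h, 6h and 12h. Without the replicate block GS gave 0 at 6h (5.62% of all genes higher, 3.69% lower) and 0 at 12h (9.15%, 7.43%). PD gave 1 at 6h (0.579%, 0.0643%), and the block changed no other count of members called. With all 27 libraries in one fit GS also gave 0 at 6h (4.84%, 4.14%) and 0 at 12h (8.42%, 7.7%). It gave 0 at both times with a fold change of at least 2, for which the share of all genes is not given here. DESeq2 gave 3 in GS at 12h (22.0% of all genes higher, 21.2% lower), 1 in PD at 6h (2.08%, 0.727%), 2 in PD at 12h (9.44%, 8.36%), and 4 and 3 for the level at 0h (23.4%, 22.3%) and 6h (16.3%, 14.9%). With the length and GC trend removed there were 2 in GS at 12h (21.6%, 21.9%), 1 in PD at 6h (1.2%, 0.285%), 3 in PD at 12h (12.9%, 9.7%), and 2 and 1 for the level at 0h (24.5%, 16.1%) and 12h (13.0%, 8.37%). With no filter on low counts the levels gave 2 (12.7%, 12.2%), 3 (6.73%, 6.69%) and 3 (5.8%, 5.66%). With the 2 PD libraries left out there were 1 at 6h (2.12%, 0.505%) and 3 at 12h (11.8%, 11%) in PD. Leaving out each pig gave 0 to 3 in GS at 6h (0 without pig 44, with 7.81% and 7.05% of all genes, and 3 without pig 9, with 13.8% and 11.8%), 1 to 4 in GS at 12h (2 without pig 55, with 13.0% and 12.9%, 3 without pig 77, with 15.8% and 17%, and 4 without pig 9, with 20.3% and 20%), 0 to 4 in PD at 12h (0 without pig 3 or 5, with 0.0% of all genes, 0 without pig 4, with 1.5% and 1.05%, and 4 without pig 2, with 12.5% and 13.0%), and for the levels 2 to 5 at 0h (5 without GS pig 9, with 20.8% and 18.5%), 1 to 3 at 6h (1 without GS pig 44 or 77 or PD pig 2, 4 or 5, with 6.39% to 11.6% and 4.31% to 8.59%) and 2 to 4 at 12h (2 without GS pig 44, 55 or 77 or PD pig 3 or 4, with 6.91% to 9.68% and 5.1% to 6.68%). The count of 0 members for the interaction and for 12h against 6h held in all settings run, among which the exact Wilcoxon test had little room to pass. The shares of all genes did not stay at 0 in every setting. In PD from 6h to 12h DESeq2 called 0.714% higher and 0.798% lower. The fit of all 27 libraries called 1.39% and 1.36%, and the fit without the 2 PD libraries 2.04% and 2.3%. The interaction without PD pig 2 called 0.872% and 0.495% at 6h, and 0.399% and 0.425% at 12h. The cause of these shifts was not tested. The sign turned for the following log2 values. In GS at 6h HSPB1 was -0.15 with the trend removed and HSPD1 -0.01 without the block, and leaving out pigs gave -0.58 to 1.15 for HSPH1, -0.30 to 0.37 for HSPB1 and -0.12 to 0.32 for HSPD1. In GS at 12h HSPH1 was 0.03 in DESeq2, 0.03 with its size factors, 0.01 in the joint fit and 0.08 with the trend removed, DNAJA1 was -0.09 without the block, and leaving out pigs gave -0.56 to 0.92 for HSPH1, -0.18 to 0.33 for DNAJA1, -0.72 to 0.01 for HSPB1 and -0.01 to 0.28 for HSPD1. In PD at 6h DNAJA1 was -0.11 and HSPD1 -0.03 with the 2 libraries left out, HSPB1 0.28 with the trend removed, and leaving out pigs gave -0.11 to 0.52, -0.03 to 0.35 and -0.77 to 0.21. In PD at 12h HSPB1 was 0.86 without the block and -1.43 to 0.30 over the pigs left out. For the level at 0h HSPD1 was -0.24 with the trend removed, HSPB1 0.04 with the 2 libraries left out and -0.37 to 0.04 over the pigs, and HSPH1 -0.64 to 0.81. At 6h HSPH1 was -0.30, DNAJA1 -0.46 and HSPD1 -0.28 with the trend removed, and HSPH1 -0.19 to 0.90 over the pigs. At 12h DNAJB1 was -0.19 with the 2 libraries left out, -0.42 with the trend removed and -0.19 to 0.28 over the pigs, and HSPB1 -1.53, -0.77 and -1.53 to 1.25. Over the 9 members and DNAJA1 in the 4 changes from 0h and the 3 level comparisons, 723 values kept direction and call, 40 were newly called, 40 lost a call and 47 turned sign. Counting error is small for every member, whose lowest count was 245.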
